A study of Mus musculus with 15 samples.

Results

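The 50 genes described here act in the cell cycle, and some of them restrain it. Each was assigned to 1 list: 19 to S phase and DNA replication, 4 to G1 (the D-type cyclins and their kinase Cdk4) and 27 to mitosis. The cyclin gene Ccna2 was counted with mitosis. They were taken as a fixed list of gene names, chosen with earlier results of these data known, so the list itself was not tested. Shares of members beside those of all features are descriptions. All 50 were found among the 27751 named genes and unnamed probes measured. They are covered by 79 probes; 27 genes have 1 probe and 23 have several. Of several probes the brightest over all arrays was used. On all 15 arrays 45 of the 50 genes were well above the local background. The exceptions were Cdk2 and Ttk (13 arrays each), Ccne2 (11), Cdk1 (14, with the spot flagged as outlying on the other) and Cdc25c (9).

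RNA of laser microdissected colon cells was hybridised to 15 Agilent mouse arrays, 1 dye each. The mice were males of the Apc+/Min-FCCC strain on C57BL/6J, in which Apc, a brake on Wnt signalling, has lost 1 working copy and adenomas grow in the colon. At 6 to 8 weeks of age they were classed by colonoscopy as with or without tumors, and received medicated or plain chow for 7 days. Adenoma cells came from mice given 300 ppm sulindac, an inhibitor of cyclooxygenases, with 100 ppm atorvastatin, a statin that blocks cholesterol synthesis (treated adenoma, 4 arrays), and from mice on plain chow (untreated adenoma, 3 arrays). Normal colon epithelium came from tumor-bearing mice (4 arrays) and from tumor-free mice (4 arrays), both labelled as given 100 ppm atorvastatin alone. Every group thus carries the Apc mutation, and no epithelium without a drug was analysed here. In a comparison of adenoma with epithelium, tissue and drug cannot be told apart. The study's protocol places tumor-bearing mice on plain chow or on both drugs, which differs from the labels of the tumor-bearing epithelium. The labels were followed.

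As background, a cell enters S phase when D-type cyclins with Cdk4 and then cyclin E with Cdk2 release E2F transcription factors from the retinoblastoma protein. E2F factors then switch on genes for origin licensing, nucleotide supply and the replication fork. Genes of mitosis are held back by the DREAM complex, which contains MuvB, and are switched on later in the cycle by MuvB with B-MYB and FOXM1. MuvB binds a short promoter element called CHR. In the healthy colon, dividing cells lie in the lower crypt, and loss of Apc activates Wnt signalling and widens this dividing zone.

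Some arrays within a group differed by less than the sampling noise of their spots and were counted as 1 sample. The log2 differences of 6 such pairs had SDs of 0.0858 to 0.17, below the spot noise of 0.188 to 0.218, whereas the 15 other pairs of a group had SDs of 0.595 to 1.12. This left 2 treated adenoma samples (array 1, and arrays 2 to 4), 2 untreated adenoma samples (arrays 1 and 2, and array 3), 3 tumor-bearing epithelium samples (arrays 1 and 3, array 2, array 4) and 3 tumor-free epithelium samples (array 1, array 2, arrays 3 and 4). Values below follow that order. Array 2 of the tumor-bearing and array 2 of the tumor-free epithelium also differed by an SD at the level of the spot noise, although their labels name different groups. Both were kept, and counts of genes that passed are also given without them. The labels call the arrays biological replicates but tie none to a named animal, so p-values measure the spread between these samples, which may be technical. Between 56.5% and 75.5% of probes on an array were well above background. The arrays were scanned on 6 dates, and the tumor-free epithelium shared a scan date with no other group, so there scan date and group cannot be told apart. A level below is the log2 processed intensity minus the array's 75th percentile. Levels of different genes come from different probes and are not compared with each other.

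The first comparison set the 4 adenoma samples against the 6 epithelium samples. The S-phase genes Cdk2, Ccne1, Mcm2, Mcm3, Mcm4, Cdc6 and Rrm2, the G1 kinase gene Cdk4, and the mitosis genes Cenpa and Aurkb were higher in the adenomas, and the other members tested did not pass. Of 49 tested members, 10 were higher and 0 lower in adenoma at an adjusted p under 0.05 (limma, 2-sided, Benjamini-Hochberg over all 18913 genes and probes tested). By role, these were 7 of 19 S-phase members, 1 of 4 G1 members and 2 of 26 mitosis members. Among all features 21.8% passed in either direction and 9.14% were higher in adenoma, so the share of S-phase members lay above the background and that of mitosis members near it. In bulk RNA of this kind, fewer cells of a type and less RNA per cell cannot be told apart. Without the near-identical pair across the epithelia, which leaves 8 samples, only Cdk2 passed among the members. That was 1 of 19 S-phase members (5.26%), with 6.01% of all features higher in adenoma, so the S-phase share no longer lay above the background. Leaving out single samples, 1 member passed without untreated array 3 (Cdk2), 2 without treated array 1, 4 without treated arrays 2 to 4, without untreated arrays 1 and 2 or without tumor-bearing array 2, 5 without tumor-free array 2 and 6 without tumor-free arrays 3 and 4.

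Cyclin E and Cdk2 form the kinase that fires the entry into S phase. Cdk2 had levels of -2.83 and -3.34 in treated adenoma and -2.04 and -3.07 in untreated adenoma, against -5.82, -4.46 and -4.60 in tumor-bearing epithelium and -3.93, -4.29 and -4.92 in tumor-free epithelium. All 4 adenoma samples lay above all 6 epithelium samples, although the probe was dim and well above background on only 2 of 4 tumor-bearing epithelium arrays. The log2 difference was 1.85 ± 0.40 (SE), or 3.61-fold (adjusted p = 0.00911, limma). Ccne1, cyclin E1, had levels of 3.12 and 3.78 in treated adenoma and 3.51 and 4.14 in untreated adenoma, against 2.89, 1.78 and 2.90 in tumor-bearing epithelium and 2.10, 1.85 and 1.91 in tumor-free epithelium. Its groups did not overlap either, and the difference was 1.40 ± 0.34 (adjusted p = 0.0168, limma). Ccne2, cyclin E2, had the highest difference of any member at 2.25 ± 0.85, but did not pass (adjusted p = 0.0851, limma); its probe was well above background on 1 of 4 tumor-bearing epithelium arrays. E2f1, the transcription factor released at this step, differed by 0.52 ± 0.35 and Cdc25a, a phosphatase that activates Cdk2, by 0.37 ± 0.44, and neither passed.

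Origins are licensed when Cdc6 and Cdt1 load the ring of Mcm2 to Mcm7, the helicase that later unwinds DNA. Mcm4 had levels of 4.63 and 4.59 in treated adenoma and 4.92 and 5.13 in untreated adenoma, against 4.30, 3.37 and 3.73 in tumor-bearing epithelium and 3.59, 3.33 and 3.27 in tumor-free epithelium. Mcm3 had levels of 4.28 and 4.52 in treated adenoma and 4.56 and 4.71 in untreated adenoma, against 4.03, 3.22 and 3.53 in tumor-bearing epithelium and 3.36, 3.36 and 2.83 in tumor-free epithelium. For both genes every adenoma sample was above every epithelium sample, and the closest epithelium sample was arrays 1 and 3 of the tumor-bearing mice. The log2 differences were 1.22 ± 0.29 for Mcm4 (adjusted p = 0.0150, limma) and 1.13 ± 0.29 for Mcm3 (adjusted p = 0.0223, limma). Mcm2 had levels of 3.21 and 2.73 in treated adenoma and 3.54 and 3.21 in untreated adenoma, against 2.54, 2.02 and 2.25 in tumor-bearing epithelium and 2.16, 2.22 and 1.67 in tumor-free epithelium. Its groups were apart as well, with a difference of 1.03 ± 0.29 (adjusted p = 0.0304, limma). The 3 other helicase subunits did not pass: Mcm7 differed by 0.70 ± 0.32, Mcm6 by 0.35 ± 0.26 and Mcm5 by 0.32 ± 0.32.

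Cdc6, the loading factor, had levels of 0.18 and 0.52 in treated adenoma and 0.37 and 0.32 in untreated adenoma, against 0.16, -1.07 and -0.38 in tumor-bearing epithelium and -0.95, -0.79 and -1.70 in tumor-free epithelium. The lowest adenoma sample lay just above the highest epithelium sample, and the difference was 1.13 ± 0.34 (adjusted p = 0.0404, limma). Cdt1, its partner, differed by 0.52 ± 0.29, and Gmnn, geminin, which inhibits Cdt1, by 0.08 ± 0.34, and neither passed.

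Ribonucleotide reductase, a complex of Rrm1 and Rrm2, makes deoxynucleotides. Rrm2 had levels of 2.17 and 1.22 in treated adenoma and 2.52 and 2.87 in untreated adenoma, against 0.94, -0.17 and 0.60 in tumor-bearing epithelium and 0.90, -0.17 and 1.08 in tumor-free epithelium. The adenoma samples were all above the epithelium samples, with the untreated adenomas the highest, and the difference was 1.66 ± 0.39, or 3.16-fold (adjusted p = 0.0136, limma). Rrm1 differed by 1.14 ± 0.37 and narrowly missed the threshold (adjusted p = 0.0520, limma). Pcna, the sliding clamp of the replication fork, had levels of 5.33 and 3.95 in treated adenoma and 5.40 and 5.08 in untreated adenoma, against 4.56, 3.88 and 4.30 in tumor-bearing epithelium and 4.86, 3.81 and 4.64 in tumor-free epithelium. The treated sample of arrays 2 to 4 lay within the epithelium, and the difference of 0.60 ± 0.37 did not pass. The thymidine enzymes had differences near 0: Tyms, thymidylate synthase, differed by 0.11 ± 0.27 and Tk1, thymidine kinase, by 0.05 ± 0.43. Of the other Tyms probes, that above background on 14 arrays gave -0.52 and that on 15 arrays gave 0.13.

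**Figure D1:**
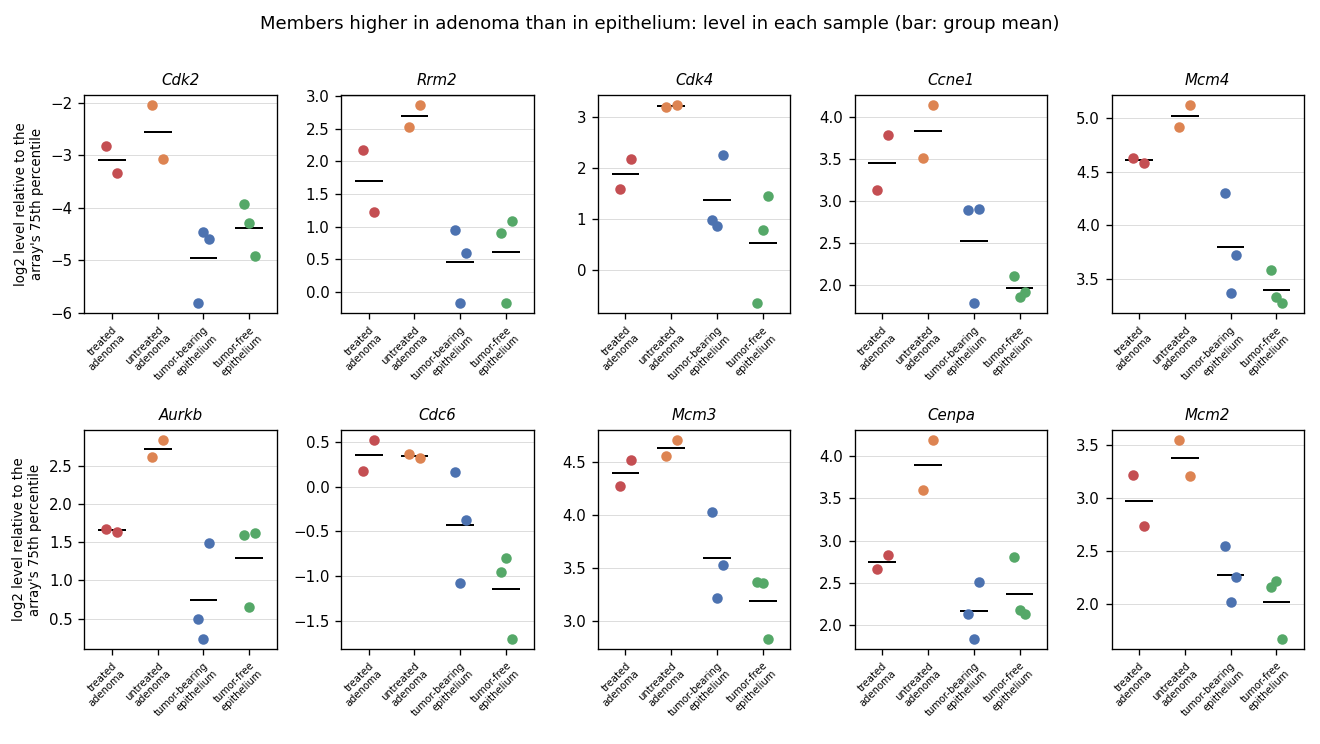
Log2 level (y axis, relative to the array's 75th percentile) of the 10 members that were higher in adenoma, 1 panel per gene with its own scale. Points are samples, bars are group means, and groups run from treated and untreated adenoma to tumor-bearing and tumor-free epithelium. In all panels but those of Cdk4 and Cenpa the 4 adenoma samples lie above all 6 epithelium samples.

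Over the whole list, 8 members had adenoma samples wholly above the epithelium samples, namely 7 S-phase members and Aurkb, whereas 7.17% of all features did. Without the near-identical pair there were again 7 S-phase members and 1 mitosis member, against 7.77% of all features. The other 2 members that passed overlapped. The G1 kinase Cdk4 had levels of 1.58 and 2.19 in treated adenoma and 3.20 and 3.25 in untreated adenoma, against 0.99, 0.86 and 2.26 in tumor-bearing epithelium and -0.66, 0.78 and 1.46 in tumor-free epithelium. The untreated adenomas stood highest and the treated ones overlapped array 4 of the tumor-bearing epithelium. The difference was 1.61 ± 0.47 (adjusted p = 0.0358, limma).

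The D-type cyclins, the partners of Cdk4, had differences of either sign and did not pass. Ccnd1, a Wnt target in the colon, had levels of 3.14 and 1.68 in treated adenoma and 2.40 and 3.73 in untreated adenoma, against 2.28, 1.05 and 1.36 in tumor-bearing epithelium and 2.49, 1.03 and 0.84 in tumor-free epithelium. The groups overlapped, and the difference was 1.23 ± 0.50 (adjusted p = 0.106, limma). Ccnd2 had levels of 3.49 and 3.61 in treated adenoma and 3.08 and 3.88 in untreated adenoma, against 4.33, 4.48 and 4.27 in tumor-bearing epithelium and 3.77, 4.30 and 4.18 in tumor-free epithelium. All but array 1 of the tumor-free epithelium lay above the adenomas, with a difference of -0.71 ± 0.29 (adjusted p = 0.107, limma). Ccnd3 differed by -0.63 ± 0.29 (adjusted p = 0.148, limma).

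Of the mitosis genes, the 2 that passed act at the centromere and midzone of the spindle. Cenpa, the histone variant that marks centromeres, had levels of 2.66 and 2.83 in treated adenoma and 3.6 and 4.19 in untreated adenoma, against 2.13, 1.83 and 2.51 in tumor-bearing epithelium and 2.80, 2.18 and 2.13 in tumor-free epithelium. The untreated adenomas were highest, and a treated sample fell just below array 1 of the tumor-free epithelium; the difference was 1.06 ± 0.30 (adjusted p = 0.0333, limma). Aurkb, the kinase of the chromosomal passenger complex, had levels of 1.68 and 1.64 in treated adenoma and 2.61 and 2.84 in untreated adenoma, against 0.49, 0.24 and 1.49 in tumor-bearing epithelium and 1.60, 0.65 and 1.62 in tumor-free epithelium. The treated adenomas lay only just above the highest epithelium sample, and the difference was 1.18 ± 0.36 (adjusted p = 0.0407, limma). Birc5, survivin, which sits in the same complex, had levels of 4.81 and 5.06 in treated adenoma and 5.0 and 4.16 in untreated adenoma, against 5.40, 4.16 and 4.84 in tumor-bearing epithelium and 5.28, 4.23 and 4.30 in tumor-free epithelium. Its groups overlapped throughout, the difference was 0.06 ± 0.37, and its sign turned to -0.20 without the near-identical pair.

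The spindle checkpoint genes had high differences and a wide spread. Mad2l1, which holds back the anaphase activator Cdc20, had levels of 1.49 and 0.15 in treated adenoma and 1.94 and 2.13 in untreated adenoma, against 0.04, -1.44 and 0.70 in tumor-bearing epithelium and 0.59, -1.32 and 0.79 in tumor-free epithelium. Bub1, a kinase of the same checkpoint, had levels of 2.16 and 1.73 in treated adenoma and 2.10 and 2.32 in untreated adenoma, against 0.62, -0.82 and 1.59 in tumor-bearing epithelium and 1.75, -0.50 and 1.57 in tumor-free epithelium. In both genes array 2 of each epithelium was more than 1 log2 unit below the other epithelium samples. The differences, 1.53 ± 0.56 for Mad2l1 (adjusted p = 0.0780, limma) and 1.37 ± 0.57 for Bub1 (adjusted p = 0.112, limma), did not pass. Bub1b differed by 1.06 ± 0.52 and Ttk by 1.03 ± 0.78, without passing.

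Cdk1, the kinase that starts mitosis, had a level of -1.60 in the 1 treated adenoma sample left and 1.00 and 1.02 in untreated adenoma, against -3.18, -2.89 and 0.83 in tumor-bearing epithelium and -2.55, -3.06 and 0.32 in tumor-free epithelium. Its spot on treated adenoma array 1 was flagged and left out. Both epithelia held a sample near the untreated adenomas and samples far below, and the difference was 1.46 ± 1.05 (adjusted p = 0.343, limma). Ccnb1, cyclin B1, its partner, had levels of 1.01 and 1.01 in treated adenoma and 2.38 and 2.50 in untreated adenoma, against 1.26, 0.62 and 1.57 in tumor-bearing epithelium and 1.47, 0.55 and 1.36 in tumor-free epithelium. The untreated adenomas alone stood apart, and the difference over both adenoma groups was 0.59 ± 0.32 (adjusted p = 0.213, limma). Plk1, a kinase of mitotic entry and exit, had levels of 2.12 and 3.21 in treated adenoma and 3.14 and 3.64 in untreated adenoma, against 2.87, 2.23 and 2.98 in tumor-bearing epithelium and 2.51, 2.11 and 2.03 in tumor-free epithelium. Treated adenoma array 1 lay among the lowest epithelium samples, and the difference was 0.57 ± 0.33 (adjusted p = 0.240, limma).

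Top2a, which untangles chromosomes before they separate, had levels of 3.49 and 2.46 in treated adenoma and 2.76 and 0.31 in untreated adenoma, against 1.34, 0.27 and 2.63 in tumor-bearing epithelium and 3.13, 0.35 and 1.40 in tumor-free epithelium. It spread over more than 3 log2 units within the adenomas alone, and the difference was 0.73 ± 0.70 (adjusted p = 0.472, limma). Mki67, which coats mitotic chromosomes and is the usual marker of dividing cells, had levels of 4.21 and 4.32 in treated adenoma and 4.37 and 3.6 in untreated adenoma, against 4.60, 3.73 and 4.75 in tumor-bearing epithelium and 4.68, 3.76 and 4.74 in tumor-free epithelium. Its lowest sample was an untreated adenoma, and the difference of -0.25 ± 0.36 did not pass (adjusted p = 0.632, limma). That difference turned to 0.093 with quantile normalization and to 0.075 in the authors' table, and a second Mki67 probe gave 0.01. The other 14 tested mitosis members differed by -0.03 to 0.98. Cdc25c, a phosphatase that activates Cdk1, was dim and in no group well above background on every array, so it was not tested here.

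**Figure D2:**
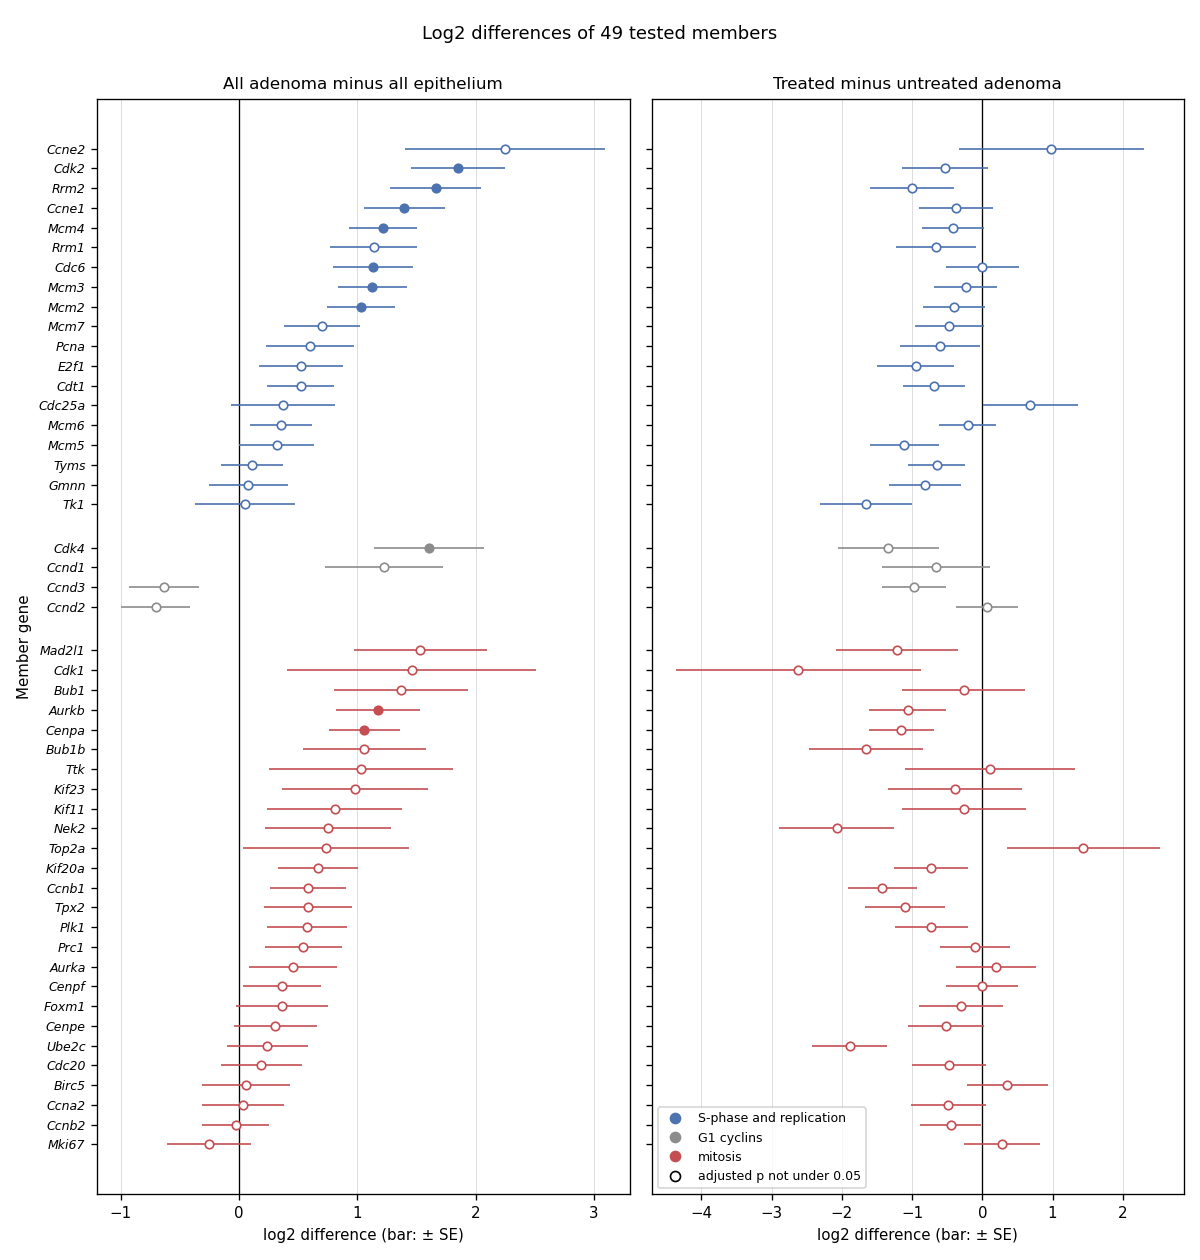
Log2 difference with its SE (x axis) of each tested member (y axis) by role, for all adenoma minus all epithelium at left and treated minus untreated adenoma at right. Filled points passed an adjusted p of 0.05: 10 lie to the right of 0 in the left panel and none is filled in the right panel, where 40 of 49 points lie left of 0.

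The S-phase and mitosis lists were then set side by side. All 19 S-phase members and 24 of 26 mitosis members had a difference above 0, against 43.4% of all features. The median log2 difference was 0.70 for S-phase members and 0.58 for mitosis members, against -0.17 for all features. Quantile normalization moved the median of all features to -0.03. Relative to the median of all features in each setting, S-phase members stood at 0.87 before and 1.11 after it and mitosis members at 0.75 and 0.78. With the near-identical pair left out, the S-phase median was 0.79 with 18 of 19 members above 0, while the mitosis median was 0.25 with 20 of 27 above 0. The 27 include Cdc25c, which entered this test only without the pair.

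The level of each list in each sample, as the mean over its genes after each gene was centred on the mean of its group means, was compared next. S-phase genes stood at 0.21 and 0.17 in treated adenoma and 0.63 and 0.71 in untreated adenoma, against -0.27, -0.62 and -0.18 in tumor-bearing epithelium and -0.29, -0.61 and -0.62 in tumor-free epithelium. No epithelium sample reached an adenoma sample. Mitosis genes stood at 0.03 and -0.0046 in treated adenoma and 0.55 and 0.73 in untreated adenoma, against -0.31, -1.09 and 0.31 in tumor-bearing epithelium and 0.13, -1.01 and 0.04 in tumor-free epithelium. Here 3 epithelium samples reached or passed the treated adenomas, and the lowest samples were array 2 of each epithelium, the near-identical pair. Of the 27 mitosis members 10 had their lowest value in the tumor-bearing and 10 in the tumor-free sample of this pair, against 3 and 2 of the 19 S-phase members.

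S-phase minus mitosis level was 0.18 and 0.18 in treated adenoma and 0.09 and -0.02 in untreated adenoma, against 0.04, 0.47 and -0.49 in tumor-bearing epithelium and -0.42, 0.40 and -0.67 in tumor-free epithelium. The 4 adenoma samples lay close together, and within each epithelium the sign changed from sample to sample. Within the epithelium, the range over samples had a median of 1.12 for S-phase members and 1.24 for mitosis members, and within the adenomas 1.19 and 1.07.

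**Figure D3:**
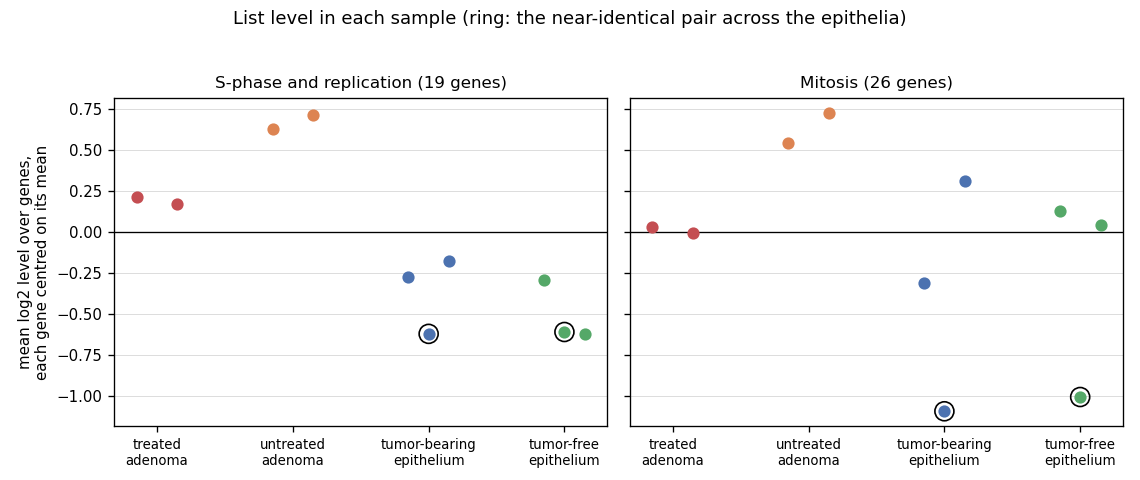
Mean log2 level over the 19 S-phase genes (left) and the 26 mitosis genes (right), each gene centred on the mean of its group means (y axis), by group. Rings mark array 2 of each epithelium, which are near-identical. S-phase levels are above 0 in all adenoma samples and below 0 in all epithelium samples, while mitosis levels overlap.

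The lists also differ in the DNA at their gene starts. Promoter windows of 300 bases, from 250 before to 50 after the gene start, were available from RefSeq (build GRCm38.p6) for 39 of the 50 members and for 27025 genes in all. An E2F-type element, TTTNNCGC on either strand, was found in windows of 9 of 16 S-phase genes (56.2%) and 1 of 21 mitosis genes (4.76%), against 5.93% of all genes. The CHR element, TTTGAA on either strand, was found for 1 of 16 S-phase genes (6.25%) and 15 of 21 mitosis genes (71.4%), against 20.2% of all genes. A CCAAT box, CCAAT on either strand, was found for 62.5% of S-phase genes and 90.5% of mitosis genes, against 41.1% of all genes. CHR matches in mitosis genes began at a median of -16.5 bases from the gene start, and E2F-type matches in S-phase genes at -86.5. In 1 member window matches of different elements overlapped.

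The windows below belong to S-phase members that passed and hold an E2F-type match (Mcm3, Cdk2, Cdc6), to a mitosis member that passed (Cenpa), and to a pair of mitosis members that did not pass and hold CHR matches (Mki67, Plk1). Each is written 5′ to 3′ on the gene's strand, with E2F-type and CHR matches in capitals. Mcm3 lies at chr1:20820263-20820562 (minus strand), Cdk2 at chr10:128705002-128705301 (minus strand), Cdc6 at chr11:98907901-98908200 (plus strand), Cenpa at chr5:30666636-30666935 (plus strand), Mki67 at chr7:135716330-135716629 (minus strand) and Plk1 at chr7:122159185-122159484 (plus strand), all on GRCm38.p6.
Mcm3: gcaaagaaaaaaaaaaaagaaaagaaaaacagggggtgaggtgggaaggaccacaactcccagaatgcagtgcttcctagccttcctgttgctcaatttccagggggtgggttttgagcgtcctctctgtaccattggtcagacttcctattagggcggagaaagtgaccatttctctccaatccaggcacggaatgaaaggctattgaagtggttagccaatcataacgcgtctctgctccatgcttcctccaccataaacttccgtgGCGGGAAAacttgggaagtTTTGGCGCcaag
Cdk2: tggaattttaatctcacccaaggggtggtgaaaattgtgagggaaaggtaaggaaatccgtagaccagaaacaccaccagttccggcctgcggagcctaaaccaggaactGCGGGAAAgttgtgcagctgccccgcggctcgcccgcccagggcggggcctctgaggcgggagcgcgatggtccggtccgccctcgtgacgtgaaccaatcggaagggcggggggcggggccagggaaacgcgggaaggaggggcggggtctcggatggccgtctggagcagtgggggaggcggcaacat
Cdc6: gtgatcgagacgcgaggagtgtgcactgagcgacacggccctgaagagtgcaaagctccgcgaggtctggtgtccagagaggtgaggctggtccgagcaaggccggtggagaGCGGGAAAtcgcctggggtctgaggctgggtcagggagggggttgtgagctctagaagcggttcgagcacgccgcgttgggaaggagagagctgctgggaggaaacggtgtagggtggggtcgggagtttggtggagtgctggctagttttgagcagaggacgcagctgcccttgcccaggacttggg
Cenpa: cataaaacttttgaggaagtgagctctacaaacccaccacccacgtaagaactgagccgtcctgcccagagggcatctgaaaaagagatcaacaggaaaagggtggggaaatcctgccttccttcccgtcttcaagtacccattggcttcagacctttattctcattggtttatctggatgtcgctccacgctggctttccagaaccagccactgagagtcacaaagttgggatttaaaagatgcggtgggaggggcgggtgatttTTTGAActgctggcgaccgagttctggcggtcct
Mki67: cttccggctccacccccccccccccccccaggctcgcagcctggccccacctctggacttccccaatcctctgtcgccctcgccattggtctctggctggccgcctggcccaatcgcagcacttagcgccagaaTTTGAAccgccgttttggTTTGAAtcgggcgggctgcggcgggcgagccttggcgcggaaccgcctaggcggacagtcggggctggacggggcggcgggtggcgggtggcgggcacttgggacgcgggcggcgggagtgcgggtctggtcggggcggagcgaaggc
Plk1: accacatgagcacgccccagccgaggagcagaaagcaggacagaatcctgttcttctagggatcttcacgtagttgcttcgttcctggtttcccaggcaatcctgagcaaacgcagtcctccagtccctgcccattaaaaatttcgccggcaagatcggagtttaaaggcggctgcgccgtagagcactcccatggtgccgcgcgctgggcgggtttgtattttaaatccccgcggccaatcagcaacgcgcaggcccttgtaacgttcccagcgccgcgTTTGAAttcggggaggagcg

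Mcm3 holds 2 E2F-type matches close to the gene start, and Cdk2 and Cdc6 hold 1 each, farther upstream. Cenpa and Plk1 hold 1 CHR match each near the gene start and Mki67 holds 2 farther upstream. The windows of Rrm2, Ccne1 and Mcm2, which also passed, hold no E2F-type match, and Mcm6, with 3 such matches, did not pass. A match is a description of the letters, not a test of binding.

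**Figure D4:**
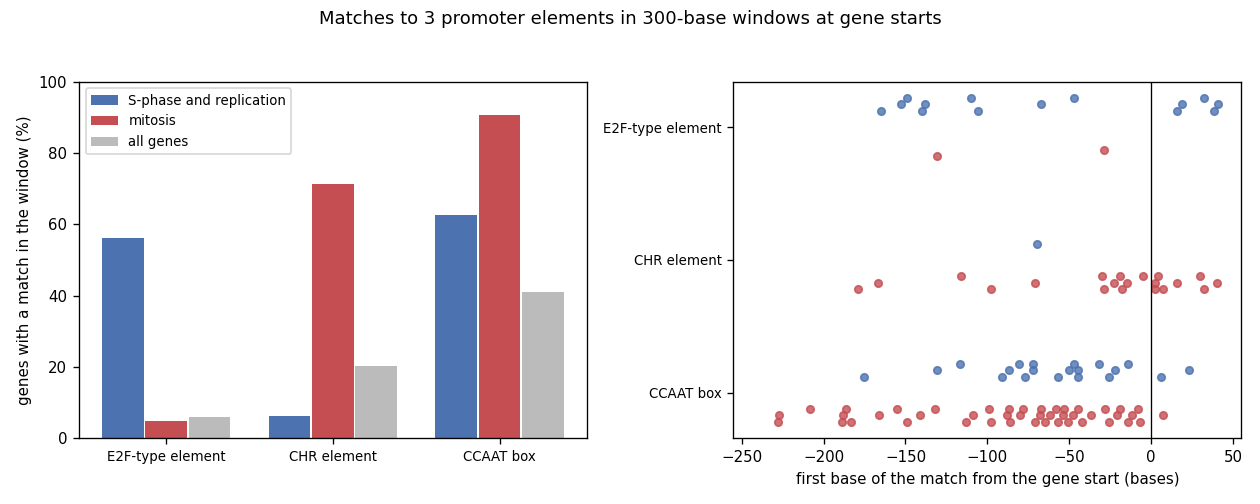
At left, the share of genes (y axis, %) with at least 1 match in the 300-base window, for 16 S-phase genes, 21 mitosis genes and all 27025 genes. At right, the start of each match from the gene start (x axis, bases) in S-phase (upper) and mitosis (lower) genes for each element. E2F-type matches belong mostly to S-phase genes and CHR matches to mitosis genes, most of them within 40 bases of the gene start.

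Each adenoma group was also set against each epithelium; these comparisons share samples, so their values are given side by side and not as independent evidence. In untreated adenoma against tumor-bearing epithelium 4 of 49 members were higher and 0 lower, with 5.32% of all features higher. They were Cdk2 (log2 difference 2.41 ± 0.56), Rrm2 (2.24 ± 0.54), Aurkb (1.98 ± 0.50) and Cenpa (1.74 ± 0.42), with adjusted p-values of 0.0223 to 0.0304 (limma). The Cdk2 probe was well above background on only 2 of the 4 tumor-bearing epithelium arrays. Cdk2 alone passed without the near-identical pair or without tumor-bearing array 2, and Rrm2 alone passed without tumor-bearing arrays 1 and 3 or with both groups fitted alone. With either untreated sample left out 0 passed, and 10 passed without tumor-bearing array 4. All 19 S-phase members and 24 of 26 mitosis members were above 0, with medians of 1.00 and 0.99. In scan date 1 (untreated array 1, tumor-bearing arrays 1 and 2) the medians were 0.98 and 1.09. In scan date 2 (untreated array 2, tumor-bearing array 3) they were 0.59 and 0.84. Both arrays of date 2 are near-identical to arrays of date 1, so the dates are not independent of each other. Untreated array 3 and tumor-bearing array 4 entered neither. With scan date as a block and each array as a sample, 20 members were higher and 1 lower, where 39.4% of all features passed.

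In untreated adenoma against tumor-free epithelium 4 of 49 members were higher and 0 lower, with 4.11% of all features higher. They were Cdk4 (2.70 ± 0.66), Rrm2 (2.09 ± 0.54), Ccne1 (1.87 ± 0.48) and Mcm4 (1.63 ± 0.41), with adjusted p-values of 0.0300 to 0.0394 (limma). The number that passed was 0 without the near-identical pair, without either untreated sample or without array 1 of the tumor-free mice. It was 1 when arrays 3 and 4 of the tumor-free mice were left out and 8 when array 4 of the tumor-bearing mice was. At an unadjusted p under 0.05 (limma) there were 22 of 49 members, against 4607 of all 18619 features tested. Without the near-identical pair there were 12 of 50 members, against 18.8% of all features.

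In treated adenoma against tumor-bearing epithelium 1 of 49 members passed, and it was lower, with 13.6% of all features called. Ccnd3, cyclin D3, had levels of 0.73 and 0.92 in treated adenoma, against 2.78, 1.84 and 2.10 in tumor-bearing epithelium. The groups did not overlap, and the difference was -1.41 ± 0.41 (adjusted p = 0.0469, limma). In untreated adenoma Ccnd3 stood at 1.73 and 1.87 and in tumor-free epithelium at 1.71, 1.82 and 1.42, all above the treated adenomas. Ccnd3 no longer passed without the near-identical pair, when both groups were fitted alone, with dim probes kept in the test, or when any single sample other than array 4 of the tumor-bearing epithelium was left out. Within scan dates 2 and 4 the difference was -2.14 and -1.14. Cdk2 differed by 1.87 ± 0.56, and did not pass (adjusted p = 0.0521, limma), with its probe well above background on 2 of the 4 tumor-bearing epithelium arrays. Within scan date 2 the medians of S-phase and mitosis members were 0.22 and -0.03, and within date 4 they were 0.23 and -0.36. The block on scan date called 2 members higher and 4 lower, where 33.1% of all features passed.

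In treated adenoma against tumor-free epithelium 0 of 49 members passed (limma), where 10.2% of all features did. At an unadjusted p under 0.05 there were 6 of 49 members, a share below the 23.4% of all features. All 6 were S-phase genes with values above 0: Ccne1, Cdc6, Mcm3, Mcm4, Mcm2 and Cdk2, with differences of 0.95 to 1.5. Without the near-identical pair there were 4 of 50 members (8%), against 18.3% of all features. The median was 0.72 for S-phase members and 0.32 for mitosis members. Without the pair, where Cdc25c also entered the test, the medians were 0.57 and -0.05. Members that passed in untreated adenoma and not in treated adenoma are not shown to differ between the adenomas by that alone, and the direct comparison follows.

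The comparison of treated with untreated adenoma asked what sulindac with atorvastatin did to these genes in the tumors. No member passed (0 of 49, limma), where 0.221% of all features did. At an unadjusted p under 0.05 there were 6 of 49 members, a share near the 12% of all features, and all 6 had values below 0. Without the near-identical pair, which belongs to neither adenoma group, there were 4 (8.16%), against 10.1% of all features. Of the 49 differences 40 were below 0, with medians of -0.53 for S-phase, -0.81 for G1 and -0.48 for mitosis members, against 0.05 for all features. In 26 members all treated samples measured lay below both untreated samples, and this holds for 20.9% of all features. Cdk1 is among them with only 1 treated sample measured.

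Ube2c, the ubiquitin enzyme that works with the anaphase-promoting complex, had levels of 1.40 and 2.50 in treated adenoma, against 3.50 and 4.18 in untreated adenoma. Ccnb1 had 1.01 and 1.01 in treated adenoma, against 2.38 and 2.50 in untreated adenoma. Nek2, a centrosome kinase, had 0.35 and -0.66 in treated adenoma, against 1.45 and 2.39 in untreated adenoma. In these 3 genes both treated samples lay below both untreated samples. The log2 differences were -1.89 ± 0.53 for Ube2c, -1.43 ± 0.49 for Ccnb1 and -2.08 ± 0.82 for Nek2, with adjusted p-values of 0.232, 0.307 and 0.364 (limma). Cenpa differed by -1.15 ± 0.46 (adjusted p = 0.371, limma).

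In the S-phase list, Tk1 had 1.5 and 2.49 in treated adenoma, against 2.99 and 4.30 in untreated adenoma. Mcm5 had 1.35 and 2.06 in treated adenoma, against 3.02 and 2.62 in untreated adenoma. E2f1 had -0.26 and 0.54 in treated adenoma, against 0.86 and 1.31 in untreated adenoma. All treated samples were below the untreated ones, with differences of -1.65 ± 0.66, -1.11 ± 0.49 and -0.95 ± 0.54 and adjusted p-values of 0.365, 0.411 and 0.534 (limma). Rrm2 differed by -1.0 ± 0.60. Cdc6 differed by 0.0018 ± 0.52 and Mcm3 by -0.24 ± 0.45, whereas their second probes, well above background on all 15 arrays, gave -1.08 and -1.98. Top2a (1.44 ± 1.09), Ccne2 (0.98 ± 1.31) and Cdc25a (0.69 ± 0.68) had values above 0 and did not pass, and a second Cdc25a probe, above background on all 15 arrays, gave -0.46. The 2 dimmer Top2a probes gave -1.56 and 3.17. Mki67 differed by 0.28 ± 0.55.

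Scan dates 2 and 5 each held both adenoma groups. In date 2 (1 array each) the medians were -0.32 for S-phase and -0.37 for mitosis members, and in date 5 (2 treated arrays, 1 untreated) they were -0.58 and -0.75. Ube2c differed by -2.06 and -1.64 in these dates, Ccnb1 by -1.34 and -1.50, Tk1 by -1.48 and -1.74, and Nek2 by -1.08 and -3.03. With scan date as a block and each array as a sample, 11 members were lower in treated adenoma and 0 higher, where 14.2% of all features passed. They were Cdk1, Nek2, Ube2c, Bub1b, Ccnb1, Aurkb, Cenpa and Tpx2 of the mitosis list, Tk1 and Mcm5 of the S-phase list, and Cdk4. That count takes near-identical arrays as separate samples, which makes its p-values too small if they share their RNA.

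**Figure D5:**
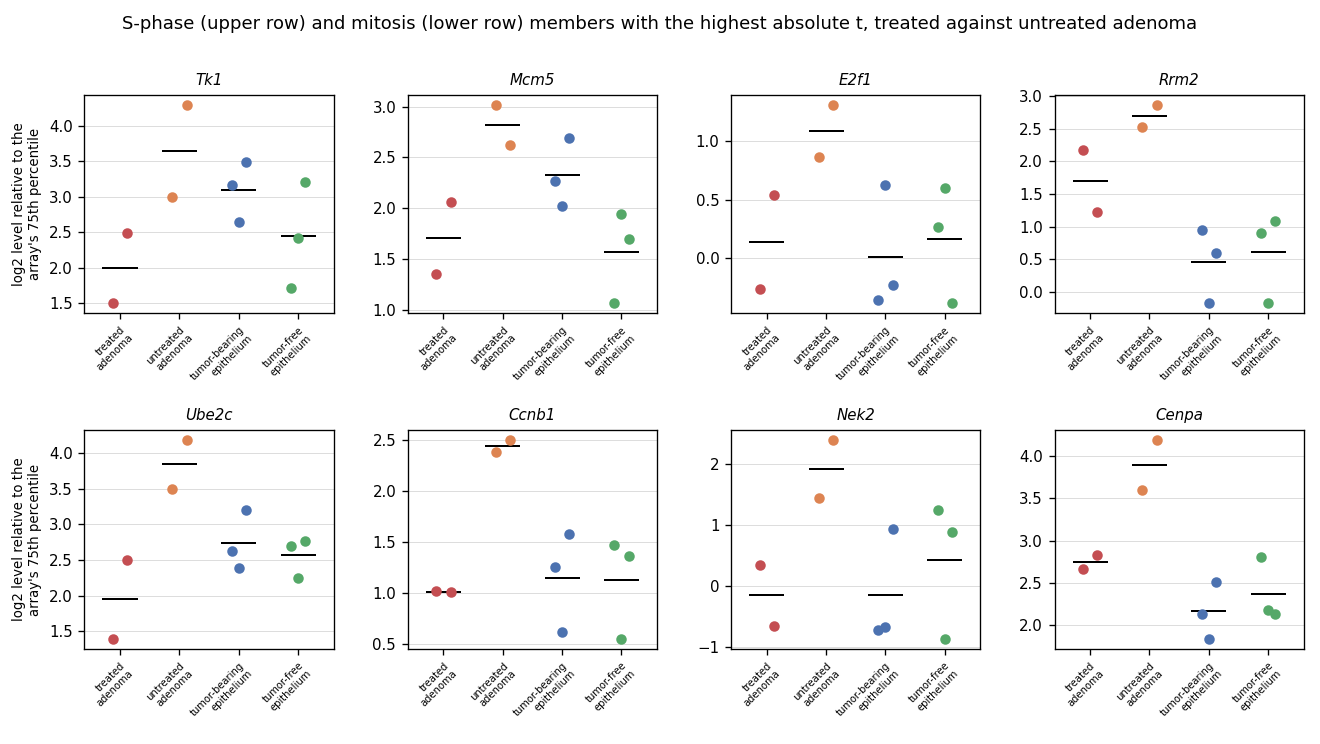
Log2 level (y axis, relative to the array's 75th percentile) of the 4 S-phase (upper) and 4 mitosis (lower) members with the highest absolute t between treated and untreated adenoma. Points are samples and bars group means, in the order treated adenoma, untreated adenoma, tumor-bearing epithelium, tumor-free epithelium. In each panel both treated adenoma samples lie below both untreated ones.

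Between the epithelium of tumor-bearing and of tumor-free mice 0 of 48 tested members passed (limma), and 0% of all features did. At an unadjusted p under 0.05 there were 0 members, against 2.84% of all features. The median difference was 0.33 for S-phase members, with 11 of 18 above 0, and 0.02 for mitosis members, with 14 of 26 above 0. Mcm5 was the member with the highest absolute t, with levels of 2.27, 2.02 and 2.69 in tumor-bearing epithelium, against 1.07, 1.94 and 1.70 in tumor-free epithelium. These values did not overlap, and the difference was 0.76 ± 0.40 (adjusted p = 0.994, limma). Leaving out 1 sample at a time moved the mitosis median between -0.29 and 0.33, and array 2 of the epithelia entered both sides with near-identical values.

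Other genes of the same processes, listed apart from the members, were counted in the same fits. Of 45 other replication genes 9 (20%) were higher and 0 lower in adenoma than in epithelium, against the 9.14% of all features that were higher. Those with the highest t were Gins1, part of the GINS complex of the replicative helicase (log2 difference 1.45 ± 0.28), Uhrf1, which keeps DNA methylation through replication (1.32 ± 0.28), Timeless, which stabilises forks (1.54 ± 0.33), and Orc6, of the origin recognition complex (1.25 ± 0.27), with adjusted p-values of 0.00524 to 0.00945 (limma). Of 60 other mitosis genes 4 (6.67%) were higher, a share below that of all features, and 0 were lower: Ncapg2, a condensin subunit (1.52 ± 0.34), Gtse1 (1.36 ± 0.35), Cenpi, of the inner kinetochore (1.10 ± 0.34), and Cks1b, a cofactor of cyclin-dependent kinases (1.04 ± 0.33). The medians were 0.64 for the replication and 0.77 for the mitosis genes of these lists. Of 18 regulators of the Rb, E2F and DREAM complexes 2 (11.1%) were higher and 1 lower. Tfdp1, the partner of E2F factors (1.36 ± 0.36), and Lin9, of MuvB (1.35 ± 0.42), were higher, and Rb1, the retinoblastoma protein that restrains E2F, was lower (-1.29 ± 0.39). Without the near-identical pair 2 of the replication genes passed, Gins1 and Timeless, and 0 of the mitosis genes and of the regulators (limma). The 2 replication genes were 4.44% of their list, below the 6.01% of all features that were higher. At an unadjusted p under 0.05 there were 8 (17.8%), 3 (5%) and 4 (22.2%) in the 3 lists, each share below the 26.8% of all features. Between treated and untreated adenoma 0 genes passed in each of these 3 lists (limma), and 8, 5 and 1 had an unadjusted p under 0.05, where 12% of all features did.

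Cell type markers moved with the same contrasts. Summed levels are given as processed intensity over the array's 75th percentile. Of 7 tested stem cell and Wnt target genes 5 were higher in adenoma, with summed levels of 105 to 142 in treated and 83.8 to 95.9 in untreated adenoma, against 13.2 to 16.0 in tumor-bearing and 12.2 to 19.9 in tumor-free epithelium. All 6 neutrophil markers were higher, at 16.7 to 48.4 in treated and 20.8 to 24.0 in untreated adenoma. Tumor-bearing epithelium had 0.0991 to 0.291 and tumor-free epithelium 0.112 to 0.262. Cxcr2 and Retnlg stood clear of background on no epithelium array, and S100a8 on no tumor-bearing one. Between the epithelia only 1 neutrophil marker met the filter for testing. The others entered the test through the adenomas alone, so the sizes of their differences are uncertain. Of 8 absorptive colonocyte markers 7 were lower, at 5.52 to 23.6 in treated and 36.5 to 67.1 in untreated adenoma, against 151 to 422 in tumor-bearing and 320 to 412 in tumor-free epithelium. Of 7 goblet cell markers 5 were lower, at 101 to 149 in treated and 218 to 264 in untreated adenoma, against 480 to 636 in tumor-bearing and 443 to 527 in tumor-free epithelium. Of 5 tested B and plasma cell markers 3 were lower, at 0.287 to 0.291 in treated and 0.507 to 1.02 in untreated adenoma, against 20.9 to 39.8 in tumor-bearing and 19.8 to 28.4 in tumor-free epithelium. Of 5 smooth muscle markers 4 were lower, and of 5 endothelial markers 1 was higher. Without the near-identical pair 4 stem cell and Wnt target genes, 6 neutrophil markers and 1 endothelial marker were higher, and 7 absorptive, 3 goblet, 3 B and plasma cell and 2 smooth muscle markers were lower.

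The 8 general epithelium markers were well above background on every array of each group, and 3 of them were lower in adenoma, or 1 (Cdx2) without the near-identical pair. None of 7 T cell, 6 macrophage or 6 fibroblast markers passed, while 3, 0 and 1 had an unadjusted p under 0.05 (limma). Between treated and untreated adenoma 1 goblet marker was lower, or 0 without that pair, and the absorptive list had a median of -3.07 with 0 of 7 passing and 5 at an unadjusted p under 0.05. The part of these cell types in the differences of the cell cycle genes was not tested.

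Where a gene had several probes, the other probes gave the sign of the brightest one in adenoma against epithelium for 22 of 29. The 7 of opposite sign belonged to Mki67, Top2a, Mcm4, Rrm1, Tyms, Cenpa and Cenpe. Those of Mcm4, Rrm1 and Cenpa were well above background on 0 arrays, that of Cenpe on 2 and that of Top2a on 5. The other 2 were not dim. That of Tyms, above background on 14 arrays, gave -0.52, against 0.11 for the brightest probe and 0.13 for its remaining probe. That of Mki67, above background on 15 arrays, gave 0.01, against -0.25 for the brightest. The signs for Tyms and Mki67 thus depended on the probe. A second probe of Mcm3 gave a difference of 2.03 in adenoma against epithelium and -1.98 in treated against untreated adenoma, wider than the 1.13 and -0.24 of the brighter probe. A second probe of Cdc6 gave 1.46 and -1.08, against 1.13 and 0.0018, so the difference of Cdc6 between treated and untreated adenoma depended on the probe. Between treated and untreated adenoma 15 of the 29 other probes had the sign of the brightest one. Of the 14 of opposite sign 3 were well above background on all 15 arrays, and these belonged to Cdc6, Cdc25a and Ccnd2.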

How the data were processed

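RNA (10 ng per sample, linearly amplified and labelled with Cy3, per the labels' protocols) was hybridised to 1-colour Agilent arrays. The deposited scanner files give the processed intensity of each spot, background-subtracted by Feature Extraction 9.5.3 per the file headers. The authors also deposited a table of log2 values, which set against the scanner files was a normalized log2 intensity. How it was normalized is not stated in the labels or headers, its 4 tumor-bearing epithelium columns matched the scanner files in reverse order, and it served only as an alternative.

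Control spots (1639 of 45018) and outlier-flagged spots were left out, each array's 75th percentile was subtracted on the log2 scale, and probes were named through RefSeq accessions and symbols. The brightest probe stood for a gene. Genes entered a test where all arrays of 1 or more of the groups compared had them well above background. The number of samples limits the precision. limma 3.58.1 (R 4.3.3) fitted all 10 samples together and gave 7 comparisons, with Benjamini-Hochberg adjustment over all features tested. The replicate numbers were not used as a block. Tables, promoter matches and figures used Python 3.11.15, pandas 2.3.3, numpy 2.4.6 and matplotlib 3.10.9, and the fit was tested on simulated data.

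Members and lists were chosen with earlier results of these data known. All members could be named. Values by sample were given for members that passed, for the 4 S-phase and 4 mitosis members with the highest absolute t in all adenoma against all epithelium and in treated against untreated adenoma, and for Mki67, Top2a, Pcna, Mcm2, Rrm2, Ccnb1, Cdk1, Ccnd1, Ccnd2, Birc5 and Plk1. Of the other pathway lists, up to 4 genes that passed in each direction were named. E2f1 and Mcm5 fall under the same rule. Alternatives were background correction by normexp (offset 50), quantile normalization, the authors' table, dim probes kept, the mean of all probes, each array as a sample, blocks on shared RNA, slide, scan date or replicate number, array weights, both groups fitted alone, and samples left out.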

Additional observations from a re-analysis of the deposited data

How the results depend on the processing

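The median difference of S-phase members between adenoma and epithelium was 1.08 with quantile normalization and 1.09 in the authors' table, against 0.70 as reported, and 0.68 to 0.95 with single samples left out. Of members in that comparison, 24 passed with each array as its own sample, 16 with shared RNA as a random block, 22 with slide as a random block, 26 with the replicate block, 22 with scan date as a random block, 1 without the near-identical pair, and 1 to 14 with single samples left out, against 10. In treated adenoma against tumor-bearing epithelium, where 1 passed, the counts were 3 (quantile), 3 (authors' table), 0 (dim probes kept), 10 (each array), 3 (shared RNA), 6 (scan date as a fixed block), 8 (slide), 11 (replicate block), 9 (scan date as a random block), 3 (array weights), 0 (both groups alone), 0 (without the pair) and 0 to 3 (single samples left out). In treated adenoma against tumor-free epithelium, where 0 passed, they were 2 (quantile), 4 (authors' table), 8 (each array), 5 (shared RNA), 6 (slide), 8 (replicate block), 7 (scan date as a random block) and 1 (array weights). In treated against untreated adenoma, where 0 passed, they were 7 (each array), 2 (shared RNA), 11 (scan date as a fixed block), 6 (slide), 13 (replicate block) and 9 (scan date as a random block). In untreated adenoma against tumor-bearing epithelium, where 4 passed, they were 8 (quantile), 11 (authors' table), 23 (each array), 15 (shared RNA), 21 (scan date as a fixed block), 22 (slide), 24 (replicate block), 23 (scan date as a random block), 8 (array weights), 1 (both groups alone), 1 (without the pair) and 0 to 10 (single samples left out). In untreated adenoma against tumor-free epithelium, where 4 passed, they were 7 (normexp), 8 (quantile), 9 (authors' table), 1 (dim probes kept), 23 (each array), 18 (shared RNA), 22 (slide), 25 (replicate block), 23 (scan date as a random block), 9 (array weights), 0 (without the pair) and 0 to 8 (single samples left out). The difference of Birc5 turned to -0.20 without the pair and to -0.16, -0.0074, -0.04, -0.019 and -0.10 with single samples left out (range -0.16 to 0.27), and that of Mki67 to 0.093 with quantile normalization and 0.075 in the authors' table. The cause was not tested. The share of all features that passed was 12% as reported, 12.7% (quantile) and 13.2% (authors' table) in untreated adenoma against tumor-bearing epithelium. In treated adenoma against tumor-bearing epithelium it was 13.6%, 14.7% and 15.1%. Against tumor-free epithelium it was 9.73%, 10.1% and 10.6% for untreated adenoma and 10.2%, 10.4% and 11% for treated adenoma.

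Fits on single arrays, including all blocks, count near-identical arrays more than once. The fixed block on scan date also called a larger share of all features than the main fit in each comparison it covered. Member counts of fits on single arrays are therefore not results about the members alone. Samples left out can leave a group with 1 sample, assumed to vary like the others. Of 21 array pairs with the same replicate number in different groups, 8 correlated over 0.1 (range -0.246 to 0.387). The best match had the same number in 18 of 42 checks. Array 2 of each epithelium, the near-identical pair, had 0.353 here, so a low correlation cannot show that arrays are unrelated. Whether a shared number means a shared animal cannot be told from these values. Scan date as a random block was chosen after seeing the data. Cdk2 passed in 21 of 22 alternatives in adenoma against epithelium, the exception being shared RNA as a random block, and Rrm2 and Ccne1 in 19. Mcm4 passed in 18, Mcm3 in 16, Mcm2 in 14, Cdk4 in 13, Cdc6 and Cenpa in 12 each and Aurkb in 11. These alternatives include the fits on single arrays and those that leave a group with 1 sample, so they are not independent checks. Dim probes (Cdk2, Ccne2, Ttk, Cdc25c) limit their own differences.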
